A study of Mus musculus with 28 samples.

Results

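The primitive streak population described here consisted of the cells that the authors annotated as primitive streak in the WT libraries of day 3, before any treatment. It held 4399 of the 4461 annotated cells of those libraries (98.6%) and 4399 of 31596 cells in the series (13.9%). The whole series had 6436 primitive streak cells, so that 68.3% of them came from day 3. Members were chosen by the authors' cell type alone, 2743 from library 1A and 1656 from library 1B. The authors built that cell type from clusters of RNA and chromatin together, so cluster membership is part of the definition and is only described below. The atlas labels were transferred from RNA, and the authors also weighed them when they named the cell types.

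Embryoid bodies (EBs), floating aggregates of differentiating mouse embryonic stem cells, were grown from a Runx1-Venus line whose Eomes gene carries mCherry and a degron. They received 5 ng/ml VEGF, 10 ng/ml BMP4 and 5 ng/ml Activin A from day 2. RNA and open chromatin were then read in the same nuclei. The libraries used were WT day 3 (1A and 1B, collected before treatment began), Eomes-KD from day 3.5 on (given 100 nM dTAG-13, which degrades the tagged EOMES protein, between day 3 and day 4) and WT from day 3.5 on (given DMSO in its place). Both day 3 libraries were taken as part of experiment 2, whose libraries all give 1 clone, G9, in their names. The day 3 names begin with 1A and 1B and the others with 2, so this placement is inferred. Day 3.5 and day 4 were sampled in both experiment 1 and experiment 2, which were performed weeks apart. Every group carries the same degron allele. Nothing stated whether 1A and 1B came from separate cultures, so p-values measure only the spread between these libraries, which may be technical. The step from day 3 to WT day 3.5 also includes the addition of DMSO. Levels of the marker genes T, Mixl1, Eomes and Pou5f1 were not analysed here. The name primitive streak was set beside the transferred atlas labels only, which is no independent check because the naming partly drew on them.

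During mouse gastrulation, pluripotent epiblast cells move through the primitive streak and leave it as nascent mesoderm or definitive endoderm. Epiblast cells express the pluripotency factor Pou5f1 (OCT4). The streak is marked by the T-box factors T (Brachyury) and Eomes and by the homeobox factor Mixl1, and Mesp1 marks the mesoderm that leaves it. Bmp and Activin/Nodal signals, which the culture supplies from outside, induce streak and mesoderm identity in the embryo.

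The median RNA count per primitive streak cell was 10965 in 1A and 12498 in 1B, and the libraries held 33355532 and 22077379 RNA counts in primitive streak cells. The remaining 62 day 3 cells were early mesoderm of the types the authors coded EOi (47 cells) and EOd (15 cells). By atlas label, 14 of the 15 EOd cells were nascent mesoderm, while 29 of the 47 EOi cells were still labelled as primitive streak. Only 8 cell barcodes occurred in both 1A and 1B. The libraries differed by more than sampling noise, with a chi-square of 95.6 over atlas labels (3 degrees of freedom, critical value 7.81) and 216.7 over atlas stages (4 degrees of freedom, critical value 9.49), so they were not 1 library deposited again. This chi-square sets 1 library against the other over counting noise, and does not tell whether they were separate cultures. They entered the tests below as 2 samples. Shares are given with 95% Wilson intervals, which take in counting error and nothing else.

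Most day 3 primitive streak cells matched primitive streak in the gastrulation atlas, a match that the authors weighed in the name, with epiblast as the next label. The Primitive Streak label was given to 2341 of 2743 cells in 1A (85.3%, interval 84.0 to 86.6) and to 1268 of 1656 cells in 1B (76.6%, interval 74.5 to 78.5). The Epiblast label took 231 cells in 1A (8.42%, interval 7.44 to 9.52) and 301 cells in 1B (18.2%, interval 16.4 to 20.1), 2.16 times the share of 1A. Among atlas labels the Epiblast share thus differed by the most percentage points between the libraries, and its intervals do not overlap. The Nascent mesoderm label was given to 161 cells in 1A (5.87%) and 86 cells in 1B (5.19%), shares whose intervals overlap. Over both libraries, the mean shares were 81.0% ± 6.20 for Primitive Streak, 13.3% ± 6.90 for Epiblast and 5.53% ± 0.478 for Nascent mesoderm (SD, n = 2). Another 4 labels, of ectoderm, endoderm and paraxial mesoderm, held 11 cells together (0.25%). The epiblast difference was seen at every depth: with the cells of each library cut in 3 equal parts by RNA count, the Epiblast share was 10.1% in 1A and 20.1% in 1B in the lowest part, 7.99% and 16.8% in the middle one, and 7.21% and 17.6% in the highest. Labels were transferred to each library separately by the authors, and the part of that step in the difference was not tested.

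**Figure D1:**
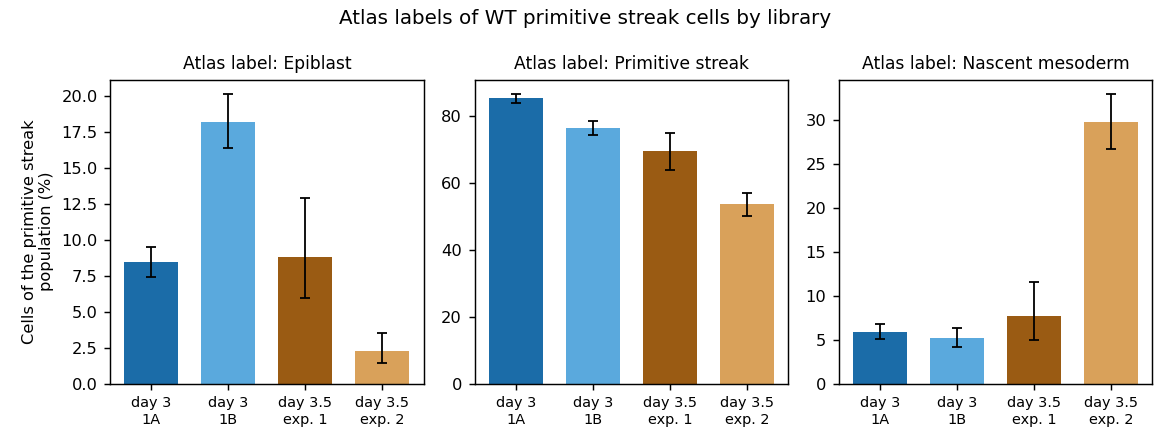
Share of WT primitive streak cells (y axis, %) with each of the 3 main atlas labels in libraries 1A and 1B of day 3 and in the WT day 3.5 libraries of experiments 1 and 2. Bars are single libraries and error bars are 95% Wilson intervals. The Epiblast share of 1B (18.2%) is above that of 1A (8.42%), and the Nascent mesoderm share is below 6% in both day 3 libraries, against 29.7% at WT day 3.5 of experiment 2.

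Finer labels from the extended atlas moved part of the epiblast cells to the streak. By these labels, 89.4% of cells in 1A and 83.0% in 1B were Primitive Streak, 4.92% and 12.3% of the same libraries were Epiblast, and 5.21% and 4.65% were Nascent mesoderm. The other 4 extended labels held 14 cells. Of the 532 cells with the Epiblast label of the first atlas, 200 (37.6%) were Primitive Streak in the extended atlas, 94 of 231 in 1A and 106 of 301 in 1B. The reverse change was given to 9 of 3609 cells. Cells with the Nascent mesoderm label kept it in 220 of 247 cases (89.1%), and the other 27 became Primitive Streak. Both boundaries of the streak label thus moved outwards in the extended atlas, while the epiblast share of 1B remained the higher one, at 2.50 times that of 1A.

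Day 3 primitive streak cells matched a narrow window of embryonic stages. The stage of the nearest atlas cells was E7.25 for 2114 cells in 1A (77.1%, interval 75.5 to 78.6) and 1525 cells in 1B (92.1%, interval 90.7 to 93.3). E7.0 was given to 580 cells in 1A (21.1%) and to 88 cells in 1B (5.31%), so that the share of 1A was 3.98 times that of 1B. E6.5, the earliest stage, was given to 33 cells in 1A (1.20%) and 42 cells in 1B (2.54%). Hence 1B had the higher shares of the epiblast label and of the earliest stage but the lower share of E7.0. Stages other than these 3 accounted for 17 cells (0.386%).

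The earliest stage, E6.5, went mostly to epiblast-labelled cells in both libraries. Cells with the Epiblast label made up 27 of the 33 E6.5 cells in 1A and 32 of the 42 in 1B, although most epiblast-labelled cells still matched E7.25 (80.5% in 1A and 83.4% in 1B). Among cells with the Primitive Streak label, E7.0 was given to 541 of 2341 in 1A (23.1%) and 55 of 1268 in 1B (4.34%). Among cells with the Nascent mesoderm label it was given to 23 of 161 in 1A (14.3%) and 14 of 86 in 1B (16.3%), and among cells with the Epiblast label to 5.19% in 1A and 5.98% in 1B. The higher E7.0 share of 1A was therefore that of cells labelled as streak. Cells of E7.0 had a higher median ribosomal percent than cells of E7.25 in both libraries, at 9.37% against 8.28% in 1A and 8.66% against 6.99% in 1B.

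**Figure D2:**
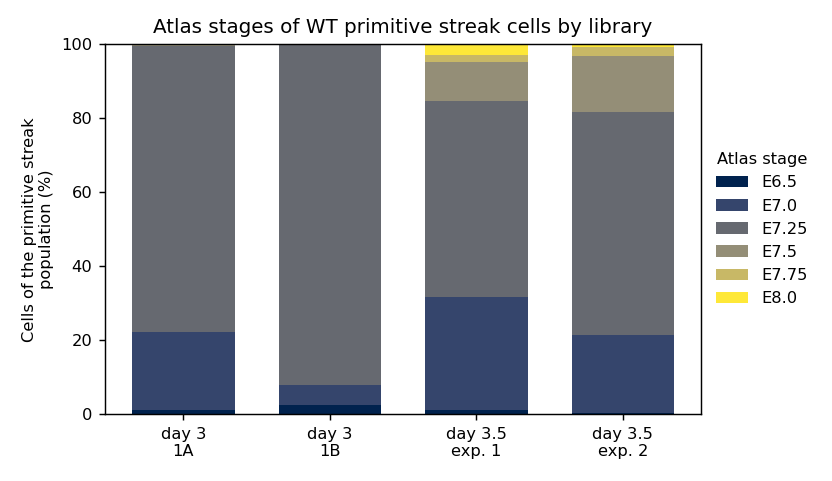
Stacked shares (y axis, % of primitive streak cells) of the atlas stages E6.5 to E8.0 in libraries 1A and 1B of day 3 and in the WT day 3.5 libraries of experiments 1 and 2. Other stages, with 3 cells or fewer a library, are not drawn. E7.0 takes 21.1% of 1A and 5.31% of 1B, and stages from E7.5 on are nearly absent at day 3.

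The population was spread over 4 of the 18 clusters of the series, and the labels took different places among them. Cluster 2 held 1303 cells of 1A and 704 of 1B, cluster 7 held 1059 and 708, cluster 11 held 257 and 128, and cluster 16 held 124 and 116. Clusters 2, 7 and 16 were largely made of WT day 3 cells (83.7%, 90.7% and 77.7% of all their cells), whereas 21.3% of cluster 11 came from WT day 3. Cluster 7 held most of the epiblast-labelled cells: the Epiblast label was given to 153 of its 1059 cells in 1A (14.4%) and 214 of 708 in 1B (30.2%). These were 66.2% of all epiblast-labelled cells in 1A and 71.1% in 1B. Cluster 11 also held many of them, 62 of 257 cells in 1A (24.1%) and 46 of 128 in 1B (35.9%). Cluster 2 was close to pure streak, with 93.6% of its cells in 1A and 91.6% in 1B labelled Primitive Streak.

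Cluster 16 held most of the nascent mesoderm. No cell of it had the Epiblast label (0 of 240 cells, interval up to 1.58%), and the Nascent mesoderm label was given to 84 of 124 cells in 1A (67.7%) and 64 of 116 in 1B (55.2%). It held 52.2% of all cells with the Nascent mesoderm label in 1A and 74.4% in 1B. In 1A, another 39.1% of them were in cluster 2, against 19.8% in 1B. The Epiblast shares of the libraries differed as much at equal cluster mix: weighted to the clusters of both libraries together, the share was 8.47% in 1A and 17.9% in 1B. For Nascent mesoderm the weighted share was 6.39% in 1A and 4.44% in 1B, further apart than the unweighted 5.87% and 5.19%. For E7.0 the same calculation gave 20.9% in 1A and 5.32% in 1B. By cluster, E7.0 was given to 326 of 1303 cells of cluster 2 in 1A and 40 of 704 in 1B (5.68%), to 18.4% of cluster 7 in 1A and 2.82% in 1B, and to 17.9% of cluster 11 in 1A and 10.2% in 1B. In cluster 16 the shares were 10.5% in 1A and 12.9% in 1B, so that 1A had the higher share in each cluster but that one.

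**Figure D3:**
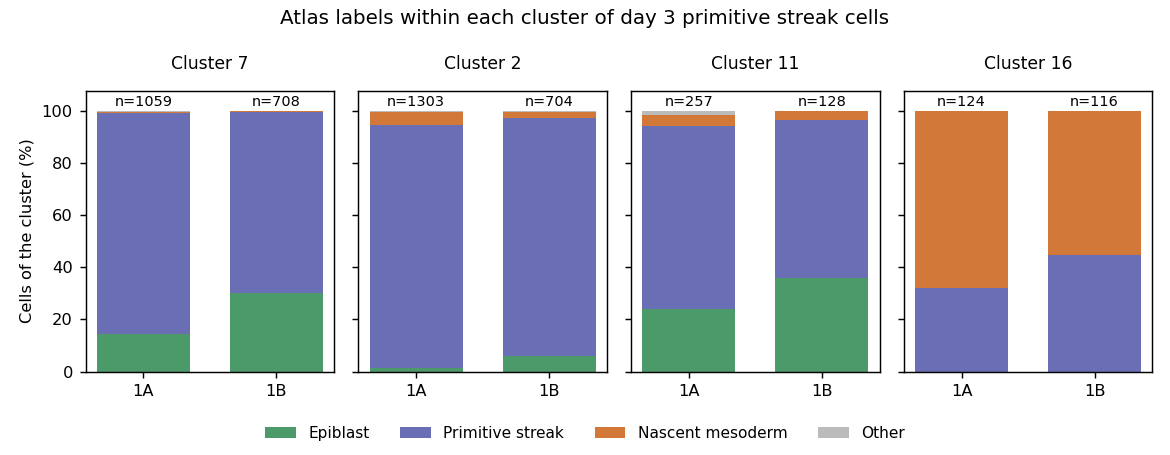
Atlas labels of day 3 primitive streak cells within each cluster (stacked bars, y axis in % of the cluster's cells) in libraries 1A and 1B, with the number of cells above each bar. Epiblast-labelled cells lie mostly in clusters 7 and 11 and are fewer than 6% of cluster 2, and cluster 16 is 67.7% Nascent mesoderm in 1A and 55.2% in 1B.

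Within each library, cells of different labels also differed in place on the UMAP, the authors' 2-dimensional map of RNA and chromatin. Epiblast-labelled cells had a median UMAP 2 of -3.94, against -3.41 for cells with the Primitive Streak label, in 1A, and of -4.00 against -3.41 in 1B. Nascent mesoderm cells lay to the other side on UMAP 1, at a median of -4.12 against -5.77 for the Primitive Streak label in 1A and -4.08 against -5.76 in 1B. The shifts were alike in size in both libraries: -0.53 and -0.58 units for epiblast on UMAP 2, and 1.65 and 1.68 units for nascent mesoderm on UMAP 1. The quartiles show that the labels were not separate islands, since 25% of nascent mesoderm cells in 1A lay below -5.70 on UMAP 1, close to the median of the streak label.

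Cluster 16 itself was split by label in 1A, and only in part in 1B. Its cells with the Nascent mesoderm label had a median UMAP 1 of -2.86 in 1A, against -7.17 for its cells with the Primitive Streak label, and of -3.99 against -6.82 in 1B. The quartiles of these groups did not overlap in 1A (-4.56 to -2.59 for nascent mesoderm and -7.31 to -6.89 for streak), but they did in 1B (-6.82 to -2.60 and -7.27 to -4.29). In 1A a single cluster therefore joined label groups that lay mostly apart on UMAP 1. Median RNA counts were 12992 for nascent mesoderm and 14945 for streak in 1A, and 13610 and 13355 in 1B.

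**Figure D4:**
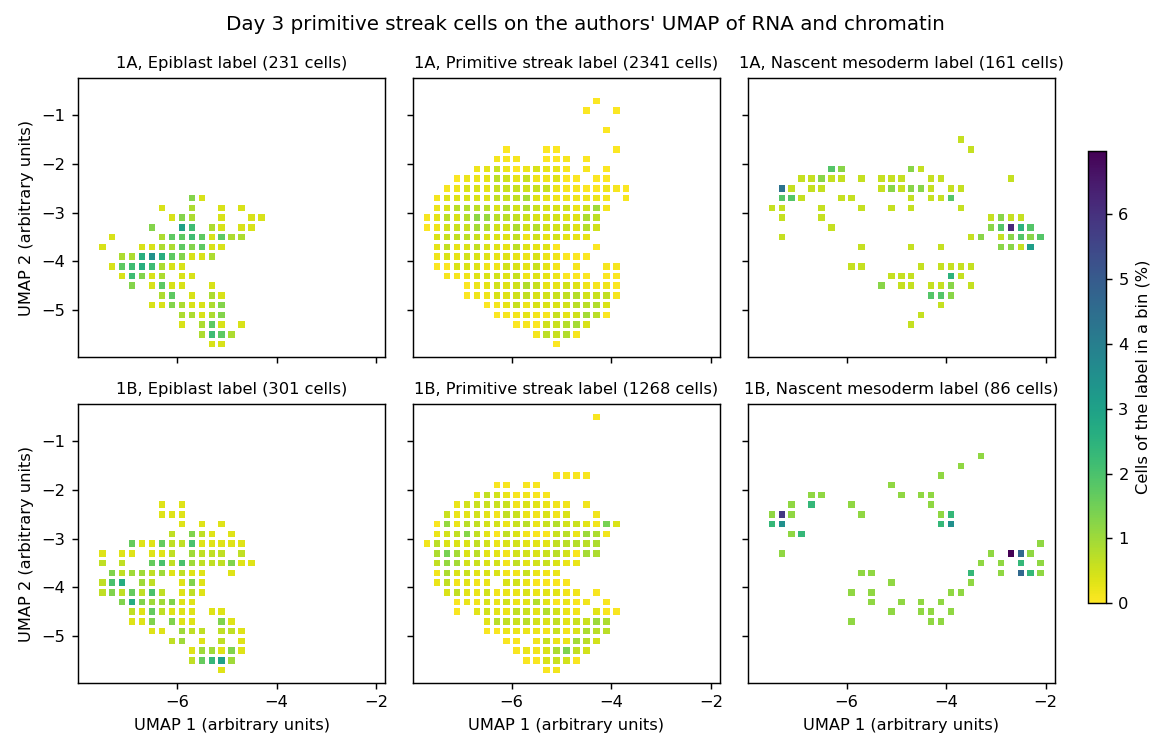
Position of day 3 primitive streak cells on the authors' UMAP (arbitrary units) by atlas label (columns) and library (rows). Each square is a bin of 0.2 units coloured by the share of the label's cells in it. Epiblast-labelled cells lie inside the area of the streak cells, towards its lower left, and nascent mesoderm cells lie around its rim, with the densest bins at the right edge and at the upper left (3 cells fell outside the plotted range).

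The score of a label differed between the 3 groups in both libraries. The label score is the share of the nearest 25 atlas cells that carry the label. Its median was 0.64 for Epiblast against 0.84 for Primitive Streak in 1A, and 0.68 against 0.80 in 1B. By this median, epiblast calls were the less certain ones. Nascent mesoderm had medians of 0.76 in 1A and 0.72 in 1B, between the others, but also the most unanimous calls. A score of 1 was reached by 48 of 161 nascent mesoderm cells in 1A (29.8%) and 17 of 86 in 1B (19.8%), against 6.19% of streak-labelled cells in 1A and 3.94% in 1B. A score under 0.5 was found in 57 cells of 1A and 20 of 1B. Among the 3 labels its share was highest for Nascent mesoderm, at 4.97% in 1A and 5.81% in 1B. It was 2.60% and 1.66% for Epiblast and 1.54% and 0.71% for Primitive Streak. Of the 11 cells with other labels, such as ectoderm, 8 had a score under 0.5.

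Depth and quality differed little between labels. Epiblast-labelled cells had a median of 10311 RNA counts, against 10962 for the Primitive Streak label, in 1A, and 12356 against 12517 in 1B. Nascent mesoderm cells had 11743 RNA counts in 1A, above the streak label, and 12226 in 1B, below it. Mitochondrial percent was lower in epiblast-labelled cells in both libraries (5.27% against 5.95% in 1A and 5.37% against 5.72% in 1B). Ribosomal percent was 7.71% for Nascent mesoderm, against 8.54% for Primitive Streak, in 1A and 6.32% against 7.10% in 1B. Of 10 measures and coordinates, 9 medians differed in the same direction in both libraries for Epiblast and 5 for Nascent mesoderm. These contrasts are descriptions of 2 libraries and were not tested. Doublet score rose with RNA count across cells of a library (Spearman's rho 0.889 over 2743 cells of 1A and 0.902 over 1656 of 1B), values that share each cell's depth, whereas the label score hardly did (-0.016 in 1A and -0.068 in 1B).

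The 4399 cells rested on few atlas cells. As the nearest cell, 482 atlas cells served 1A and 356 served 1B, and 150 of them served both (31.1% of those of 1A and 42.1% of those of 1B). The 10 most used atlas cells accounted for 40.8% of cells in 1A and 34.6% in 1B. The atlas cell whose use differed most was nearest to 236 cells of 1A (8.60%) and 19 of 1B (1.15%).

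Compared with WT day 3.5, the day 3 population held few cells that resemble ectoderm or later stages. The primitive streak population made up 98.6% of day 3 cells, but 10.7% and 11.3% at WT day 3.5 in experiments 1 and 2. Cluster 11 held a mean of 8.55% of it at day 3 and 65.9% at WT day 3.5. The comparison therefore sets nearly all cells of day 3 against a small part of day 3.5 with another cluster mix. The part of that mix in the differences was not tested. The shares of 3 of the 8 atlas labels tested (37.5%) differed (edgeR quasi-likelihood test, Benjamini-Hochberg adjustment), all lower at day 3. Surface ectoderm, the outer layer that forms epidermis, had 4 cells in 1A (0.146%) and 1 in 1B (0.0604%), against 5 cells (1.92%) in experiment 1 and 33 cells (3.96%) in experiment 2 at WT day 3.5. This is a log2 change of -4.56 ± 0.62 (SE, adjusted p = 0.00164). Rostral neurectoderm, the prospective front part of the neural plate, had 4 cells in 1A (0.146%) and 0 in 1B, against 24 cells (9.20%) in experiment 1 and 41 cells (4.92%) in experiment 2 at WT day 3.5 (log2 change -6.09 ± 1.80, adjusted p = 0.0342). Mixed mesoderm had no cell at day 3, which allows a share of up to 0.0682% (edgeR adjusted p = 0.0342, with the floor of 3 cells taken over both day 3 libraries). At WT day 3.5 it had 1 cell (0.383%) in experiment 1 and 19 cells (2.28%) in experiment 2. Day 3 was thus at least 5.62-fold lower than experiment 1, a bound that rests on 1 cell, and at least 33.4-fold lower than experiment 2. The groups did not overlap for any of these 3 labels, but this did not set them apart. Of the 8 labels tested, Primitive Streak, Nascent mesoderm and definitive endoderm did not overlap either, without passing this test. Only Epiblast and Caudal epiblast overlapped.

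Of these, surface ectoderm kept its call without each WT library in turn. Leaving out either day 3 library or the day 3.5 library of experiment 2 left surface ectoderm as the only call, and without the day 3.5 library of experiment 1 mixed mesoderm also passed, nascent mesoderm was added and rostral neurectoderm did not pass. With 1A and 1B summed to 1 sample, surface ectoderm passed (adjusted p = 0.014), but mixed mesoderm (adjusted p = 0.117) and rostral neurectoderm (adjusted p = 0.127) did not. DESeq2 called none of the 8 labels (2 at an unadjusted p under 0.05). Among all alternatives, the adjusted p of surface ectoderm ranged from 0.000834 to 0.203, the highest being that of DESeq2.

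The 3 main labels did not pass the test without a term for experiment. Epiblast was at 8.42% in 1A and 18.2% in 1B, against 8.81% and 2.28% at WT day 3.5 in experiments 1 and 2, so the groups overlap (log2 change 1.30 ± 1.21, adjusted p = 0.331). Primitive Streak was at 85.3% and 76.6% at day 3, against 69.7% and 53.7% at WT day 3.5 (0.39 ± 0.37, adjusted p = 0.331). Nascent mesoderm was at 5.87% and 5.19% at day 3, against 7.66% and 29.7% at WT day 3.5 (-1.76 ± 0.78, adjusted p = 0.0945). Here the day 3.5 libraries of the 2 experiments stood far apart, and only experiment 2 has both days. With experiment as a replicate block, 6 of 8 labels passed (75% of those tested). This fit, here and below, takes the experiment effect from later groups, since day 3 has 1 experiment. It assumes that this effect is the same in all groups, and it still counts 1A and 1B as 2 samples. Epiblast was then higher at day 3 (2.73 ± 0.78, adjusted p = 0.0158) and Nascent mesoderm lower (-2.07 ± 0.60, adjusted p = 0.0158), and Caudal epiblast, with no cell at day 3 against 17 at WT day 3.5, was the other label added. All 17 were in the library of experiment 2. DESeq2's size factors moved the median change of the 8 labels by 1.5 on the log2 scale, and under them that of Nascent mesoderm was 0.22 (adjusted p = 0.882).

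Extended labels, given to the same cells and so no separate evidence, also had few ectodermal cells at day 3. Non-neural ectoderm had 2 cells in 1A and 1 in 1B, against 8 cells (3.07%) and 37 cells (4.44%) at WT day 3.5 in experiments 1 and 2. It was the 1 of 9 labels that passed (11.1% of those tested, edgeR adjusted p = 0.00107). The pooled share was 60.3-fold higher at WT day 3.5, with an exact interval of 19.3 to 303.1 for counting error only. With TMM factors no extended label passed, and 2 were at an unadjusted p under 0.05. With experiment as a replicate block 5 of 9 passed (55.6%), among them Epiblast higher (3.34 ± 0.88, adjusted p = 0.0187) and Nascent mesoderm (-2.21 ± 0.66) and Caudal epiblast (0 cells at day 3 against 62, all of experiment 2) lower. The fifth call was Ectoderm, lower at day 3, with 7 cells against 42.

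Late stages were also scarce at day 3. The atlas stage E7.5 had 14 cells in 1A (0.510%) and 1 in 1B (0.0604%), against 27 cells (10.3%) and 126 cells (15.1%) at WT day 3.5 (log2 change -5.31 ± 0.93, edgeR adjusted p = 0.0032). E7.75 had 1 cell at day 3 against 26 at WT day 3.5, a pooled share 104.5-fold higher at WT day 3.5 with an exact interval of 17.2 to 4282 (adjusted p = 0.0147). E8.0 had no cell at day 3, against 8 cells (3.07%) in experiment 1 and 5 cells (0.6%) in experiment 2 at WT day 3.5, at least 8.79-fold lower than in that library of experiment 2 (adjusted p = 0.021). These were 3 of 6 stages tested (50%), and the 3 earlier stages did not pass. With experiment as a replicate block E8.0 did not pass (adjusted p = 0.0552), leaving 2 of 6 stages (33.3%). TMM factors, which assume that most classes do not change, raised the stage changes by a median of 2.37 on the log2 scale and left no call, with 1 stage at an unadjusted p under 0.05. Without 1B only E7.5 passed, without 1A E7.0 passed as well (lower at day 3) and E8.0 did not, and E8.0 was also lost without the day 3.5 library of experiment 1. E7.5 kept its negative sign under every alternative, between -7.09 and -2.16. For E7.0 the sign turned under TMM factors (2.43 with them and -0.96 without).

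Cells of the day 3.5 WT library in experiment 2 were also shallower, with a median RNA count of 7817, against 14808 in experiment 1. Restricted to the deeper cells of each library, those over its own median RNA count, surface ectoderm, non-neural ectoderm and E7.5 were the calls left. Cells kept thus lay above 7817 RNA counts in that day 3.5 library, but above 10965 in 1A and 12498 in 1B. The depth gap between libraries therefore stayed, and its part in the calls was not tested. In the deeper cells the log2 changes of mixed mesoderm (-5.14) and rostral neurectoderm (-4.80) remained large, at an adjusted p of 0.0674 each (edgeR). E7.75 was at -3.88 (adjusted p = 0.0589), and E8.0 had too few cells to be tested.

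Across the series, day 3 primitive streak cells were set against those of the 9 later libraries of WT and Eomes-KD with 20 or more primitive streak cells. None of 8 measures per cell passed an exact permutation test over libraries after adjustment (0% of those tested), and 1 was at an unadjusted p under 0.05. With 2 against 9 libraries a measure could pass only if at least 6 of the 8 reached the smallest p together. The measure with an unadjusted p under 0.05 was the ribosomal percent, with medians of 8.53% in 1A and 7.09% in 1B, against 8.75% to 13.37% in the later libraries (mean difference -3.03 percentage points, two-sided exact permutation p = 0.0364, the smallest that 2 against 9 libraries allow, adjusted p = 0.218). Both day 3 libraries were lower than all 9 later ones, and the 4 later libraries of experiment 2 were at 8.75% to 10.31%. Within experiment 2, however, 4 of the 8 measures had no overlap between day 3 and later libraries. These were the ribosomal percent, the doublet score and both label scores, so such a separation was not particular to the ribosomal percent. Comparing library means of cells in place of medians, 4 measures reached that smallest p and none passed (adjusted p = 0.0727).

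Label scores were at the upper end at day 3. The median atlas label score was 0.80 in 1A and 0.76 in 1B, against 0.68 to 0.76 at day 3.5 and 0.44 to 0.56 from day 4 on (adjusted exact permutation p = 0.218). The stage score was 0.52 in 1A and 0.60 in 1B, against 0.36 to 0.52 later (adjusted exact permutation p = 0.218). RNA counts per cell lay inside the range of the later libraries (7817 to 19954), in which those of experiment 1 were the deeper ones at each day and condition. The mean of library medians was 11732 at day 3 and 14176 later, but within experiment 2 day 3 was the higher one, by 1920 RNA counts. The doublet score had medians of 0.24 in 1A and 0.21 in 1B, against 0.09 to 0.17 in the later libraries of experiment 2 and 0.15 to 0.26 in those of experiment 1.

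**Figure D5:**
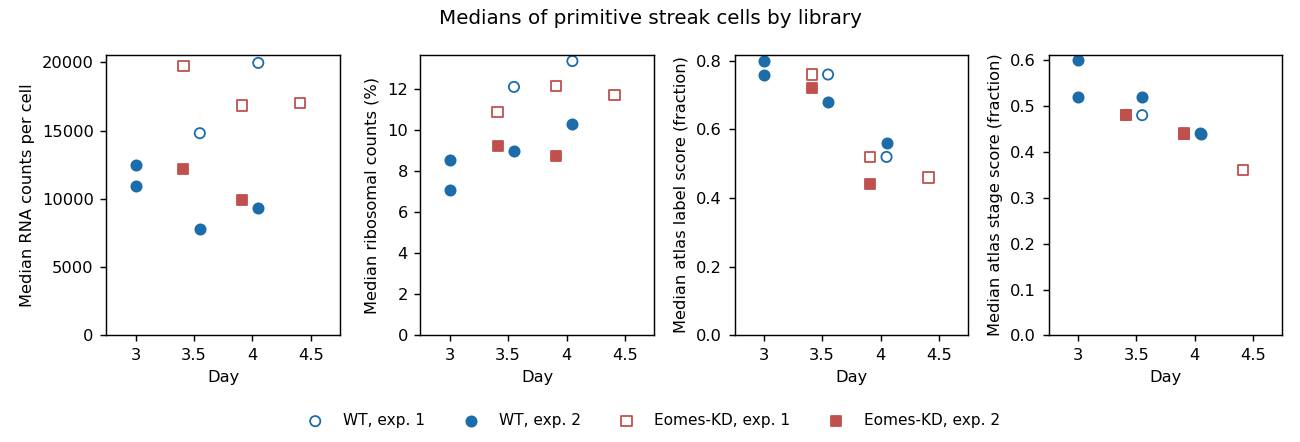
Medians of primitive streak cells (y axes from 0: RNA counts per cell, ribosomal percent, atlas label score and atlas stage score) in the 11 libraries with 20 or more such cells, by day. Circles are WT, squares Eomes-KD, open symbols experiment 1 and filled symbols experiment 2. The day 3 ribosomal medians (8.53% and 7.09%) lie below every later one, and label scores fall to 0.56 or less from day 4 on.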

How the data were processed

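The authors ran Cell Ranger ARC 2.0.1 on mm10, filtered cells on RNA and chromatin quality, removed doublets by an scds score, combined RNA and chromatin in MOFA+ and grouped 18 clusters into cell types. Of the 28 columns of the deposited cell table, 19 were used. RNA counts and genes per cell are raw counts as the authors left them. Mitochondrial and ribosomal percent were computed by the authors from these counts. The doublet score and the UMAP coordinates, a score without unit, were deposited as such. Label and stage scores are a deposited fraction of the nearest 25 atlas cells. Gene values were not analysed here.

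Numbers of cells with each label, extended label or stage entered an edgeR 4.0.16 fit under R 4.3.3 (quasi-likelihood, no abundance trend, library size the number of primitive streak cells, 11 libraries with 20 or more such cells sharing 1 spread, labels with 10 or more cells, Benjamini-Hochberg threshold 0.05). DESeq2 1.42.0 was an alternative. Experiment numbers mark differentiations done weeks apart, so experiment pairs the libraries of a day and condition. The differences between experiments correlated across labels in 6 pairs of groups at r = 0.149 to 0.762, across extended labels at -0.0558 to 0.709 and across stages at -0.689 to 0.875. Day 3, as placed here, has experiment 2 only. Library medians were compared by exact permutation, two-sided, with Python 3.11.15, numpy 2.4.6, pandas 2.3.3 and scipy 1.17.1, and figures drawn with matplotlib 3.10.9.

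Every label, stage or cluster with 1% or more of either day 3 library, or past the test, was to be named. Members, classes and tests were chosen with earlier results of these data known.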

Additional observations from a re-analysis of the deposited data

Results flagged for a closer look

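Of 10 contrasts that had 20 or more cells of each label in both libraries of day 3 and of WT day 3.5, 1 had opposite directions at the 2 days. The median extended label score of cells with the Nascent mesoderm label, minus that of cells with the Primitive Streak label, was -0.16 in 1A and -0.12 in 1B at day 3, against 0.12 and 0.08 in experiments 1 and 2 at WT day 3.5. The difference between days was not tested, and the medians move in steps of 1 of the 25 nearest atlas cells.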

How the results depend on the processing

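Of the atlas labels that differed between day 3 and WT day 3.5 (3), DESeq2 left 0, no filter on low counts gave 5, experiment as a replicate block 6, summed day 3 libraries 1, cells above the median RNA count 1, and leaving out 1 WT library 1 to 3. Of the extended labels (1), TMM factors left 0, DESeq2 gave 2, no filter 3 and the replicate block 5. Of the stages (3), TMM factors left 0, a label score of 0.6 or more 1, cells above the median RNA count 1, and leaving out 1 WT library 1 to 3. Scaling moved the median change of all classes by -0.17 (TMM) and 1.5 (DESeq2) on the log2 scale for labels, by 0.86 and 1.08 for extended labels, and by 2.37 and 0.62 for stages. The mean share of the Nascent mesoderm label at day 3 was 4.84% at a label score of 0.6 or more and 6.15% in cells above the median RNA count. In those deeper cells the clusters of 1A and 1B differed by a chi-square of 6.38, under its critical value of 7.81, against 24.9 in all cells. The cause was not tested. Of single labels, stages, measures and contrasts, 329 values kept direction and call or stayed within 1 SD, 24 lost and 14 gained a call, 14 without a test moved, and none past the threshold changed sign. Signs turned for Nascent mesoderm under DESeq2 (0.22), for E7.0 with TMM factors (2.43), for RNA counts and genes per cell within experiment 2 (1920 and 425.4 higher at day 3) and for genes per cell in libraries of 50 or more primitive streak cells (18.25). Without the day 3.5 library of experiment 2, Caudal epiblast (both atlases), Intermediate mesoderm and Lateral plate mesoderm had no cell in either group and gave no value. With 1 or 2 day 3 libraries against 4 to 9 others, the permutation test of cell measures cannot pass after leaving out a library or within experiment 2 (smallest p 0.2 and 0.133). A count of 0 allows 0.0682% at day 3.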
